A study of Mus musculus with 6 samples.

Results

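The vasopressin and oxytocin system is described here through 5 genes, namely Avp and Oxt for the peptide hormones, Oxtr and Avpr1a for their receptors, and Cd38 for an enzyme of oxytocin release. Every probe whose gene name on the array equals 1 of these symbols was taken, which gave 6 probes in 5 genes, of 37074 gene names and 56605 probes on the array. Messenger RNA was measured on 6 single-colour Agilent mouse expression arrays of tissue labelled hypothalamus, to see which genes differ after the H3K27 demethylase inhibitor GSK-J4. All animals were male C57BL/6J mice made obese by diet (DIO), put on a diet with 60 kcal percent fat at 6 weeks of age and kept on it for 16 weeks. The 3 treated mice received GSK-J4 at 30 mg/kg and the 3 control mice received vehicle, which is a dose of 0 mg/kg, with a different mouse on each array. The series' design text places the measurement 4 d after exposure, whereas the methods describe daily intraperitoneal injections over 21 d and collection at Zeitgeber time 6 h. The 3 vehicle arrays were on 1 slide and 1 scan and the 3 GSK-J4 arrays on another, so slide, scan and treatment cannot be told apart.

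Vasopressin and oxytocin are short peptides made mainly by large (magnocellular) neurons of the paraventricular and supraoptic nuclei, which send axons to the posterior pituitary, and vasopressin is also made in the suprachiasmatic nucleus. Vasopressin retains water in the kidney and constricts vessels, oxytocin acts in birth, lactation, social behaviour and food intake, and both act on receptors coupled to G proteins in the brain and in peripheral organs. In a dissected hypothalamus the messenger RNAs of both peptides are usually among the abundant transcripts.

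The label of the tissue was set against 10 defining genes of hypothalamic neurons. For each array the detection limit used here is the lowest scanner signal among probes that the scanner software marked as well above background, which was 19.3, 22.8 and 19.98 on vehicle 1, 2 and 3 and 16.04, 18.2 and 13.5 on GSK-J4 1, 2 and 3. In 6 of the 10 genes the brightest probe stayed below 5 times that limit on all 6 arrays. Nkx2-1, a transcription factor of the developing and adult hypothalamus, was well above background on 0 of 6 arrays, with scanner signals from 3.43 to 13.6. Pmch, the precursor of melanin-concentrating hormone, passed on 3 arrays (12.0 to 25.1), and Agrp, the agouti-related peptide of the arcuate nucleus, passed on 5 (15.98 to 50.5). Kiss1 (19.3 to 34.6, 5 arrays), Hcrt for orexin (24.9 to 40.8, 6 arrays) and Ghrh (20.2 to 48.1, 6 arrays) were likewise near the limit. The other 4 genes were clearly measured, with Hdc from 66.4 to 358, Pomc from 288 to 399.5, Tac2 from 877 to 1488 and Sst from 32371 to 56697, and both Sst and Tac2 are also made by neurons outside the hypothalamus. The 10 genes together summed to 37658, 43627 and 39759 table units on vehicle 1, 2 and 3 and to 42897, 43181 and 43271 on GSK-J4 1, 2 and 3, a sum that is mostly the signal of Sst. Defining genes of the hypothalamus were therefore absent or close to the detection limit on these arrays for 6 of the 10, and the arrays are named below by their labels.

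Markers of neighbouring regions were read in the same way. All 3 genes of the cortex and hippocampus list were well above background on all 6 arrays, at 64.0 to 360 times the limit, with 2819 to 8192 for Neurod6 and 3268 to 7717 for Tbr1. Their summed table values were 12351, 12464 and 12631.5 on the vehicle arrays and 11297, 9926 and 11444 on the GSK-J4 arrays. The 3 thalamus genes were measured on all arrays (Ramp3 at 1179 to 2063), Adora2a and Gpr6 of the striatum list were measured on all arrays at low signals (21.4 to 47.5 and 66.6 to 155) while Drd2, the remaining gene, was well above background on none, and 5 of 7 pituitary genes, including Gh and Prl, were well above background on none. Lhb of the pituitary list was well above background on all 6 arrays (169.6 to 347.5), and Tshb on 1. A single array stood apart in 1 list, since all 9 choroid plexus genes were highest on vehicle 1, where their sum was 113837 against 3302 and 3368 on the other vehicle arrays and 12383, 2804 and 5797 on the GSK-J4 arrays. Ttr had a scanner signal of 78435 on vehicle 1 and 1048 to 8210 elsewhere, and results without that array are given below. The part that the makeup of the tissue has in the values that follow was not tested, and in tissue RNA fewer cells of a type and less RNA per cell cannot be told apart.

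**Figure D1:**
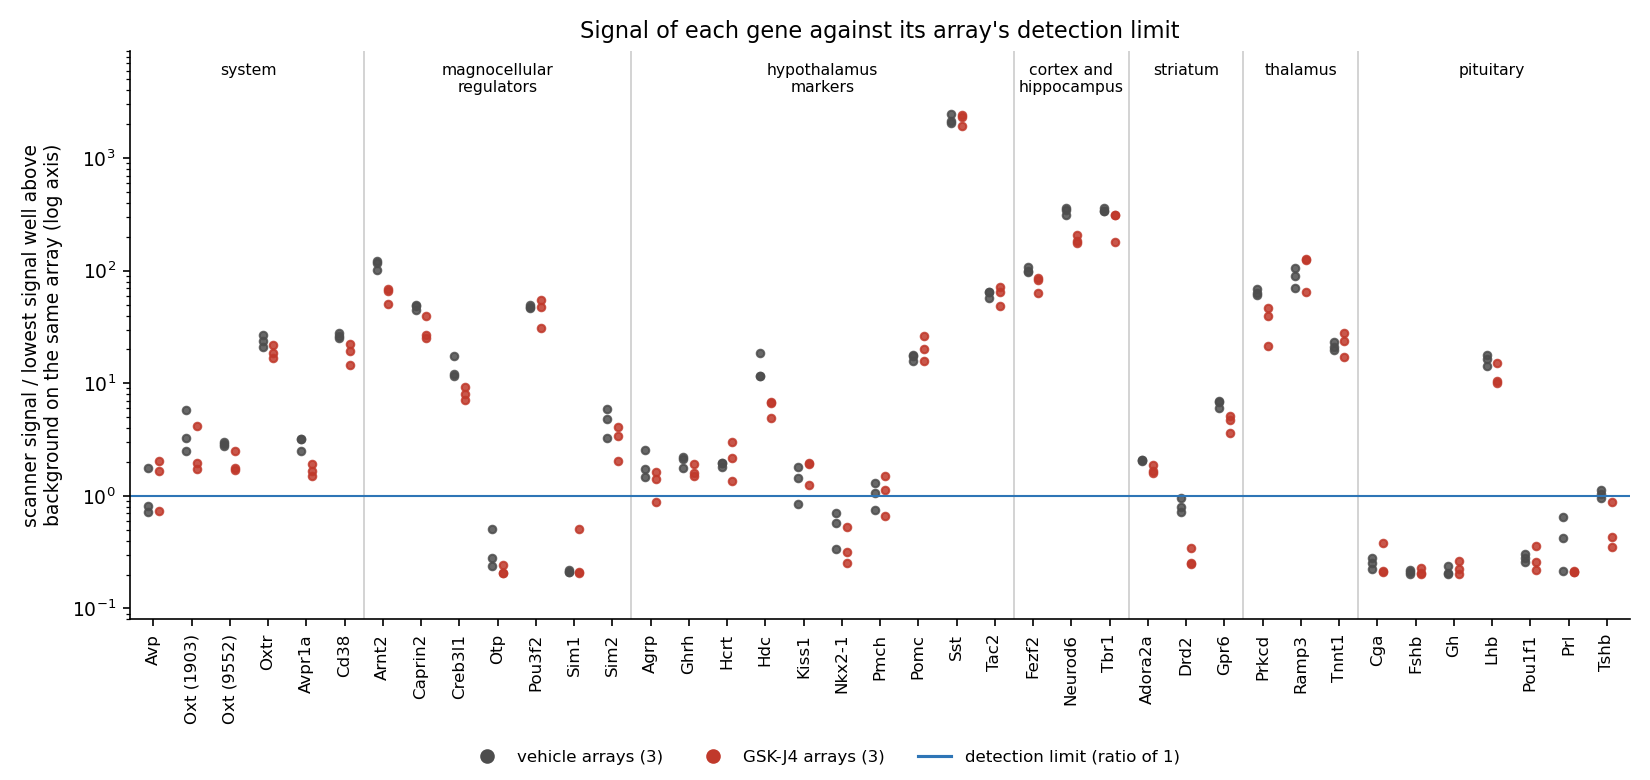
Scanner signal of the brightest probe of each gene (both probes for Oxt), divided by the lowest signal well above background on the same array, on a log axis, with 3 vehicle arrays in grey and 3 GSK-J4 arrays in red. Avp lies at 0.722 to 2.06 times the limit (blue line). Of the 10 hypothalamus markers 6 stay below 5 times the limit on all arrays, whereas the 3 genes of the cortex and hippocampus list lie at 64.0 times and above.

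A probe of each hormone gene is given with their sequence because each spans more of the genome than its own 60 bases and so joins sequence from separate exons, and because both probes are rich in G and C, which matters for the values below.
Avp A_51_P136508: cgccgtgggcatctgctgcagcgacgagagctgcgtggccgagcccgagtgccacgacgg
Oxt A_66_P119552: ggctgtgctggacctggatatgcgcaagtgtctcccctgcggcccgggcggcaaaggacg
The Avp probe covers chr2:130406552-130406817 on the minus strand of mm9, a stretch of 266 bases, and has a GC content of 73.3%. This Oxt probe covers chr2:130402038-130402358 on the plus strand, a stretch of 321 bases, with a GC content of 68.3%. Neither sequence holds a stop codon in any of its 3 forward frames. A second Oxt probe, A_55_P2161903, lies at chr2:130402665-130402724 with a GC content of 58.3%. Avp and Oxt thus lie within a few kilobases of each other on opposite strands.

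Avp was at the edge of detection. Its scanner signal was 34.2 on vehicle 1, 18.3 on vehicle 2 and 14.4 on vehicle 3, and 26.9, 13.3 and 27.8 on GSK-J4 1, 2 and 3. It was well above background on vehicle 1, GSK-J4 1 and GSK-J4 3, that is on 1 of 3 vehicle arrays and 2 of 3 treated arrays. In the deposited table of quantile-normalized log2 values, Avp read 4.61, 3.59 and 3.42 on the vehicle arrays and 5.24, 4.18 and 5.44 on the GSK-J4 arrays. Thus GSK-J4 1 and 3 were high and vehicle 2 and 3 low, while GSK-J4 2 lay below vehicle 1, so the groups overlapped. The group means were 3.88 ± 0.64 for vehicle and 4.95 ± 0.67 for GSK-J4 (SD, n = 3 each), a difference of 1.08 on the log2 scale (exact two-sided permutation test, p = 0.2, where 3 arrays against 3 cannot give less than 0.1). Neither group had all 3 of its arrays above that mark, so the probe was not part of the limma fit and has no adjusted p there. On vehicle 2, vehicle 3 and GSK-J4 2 the Avp signal was 0.80, 0.72 and 0.73 times the detection limit. Values below the limit thus enter the difference and its test, so neither measures a change and no direction is given for Avp. The detection limit itself was higher on the treated arrays in this table, at 4.49, 4.64 and 4.39 on GSK-J4 1, 2 and 3 against 3.79, 3.90 and 3.87 on vehicle 1, 2 and 3. Without vehicle 1, the array with the choroid plexus signal, the Avp difference was 1.45, and with normexp background correction of the scanner values it was 0.35.

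Oxt was dim but measured on all 6 arrays with both probes. Probe A_55_P2161903 read 6.32, 5.21 and 5.57 on vehicle 1, 2 and 3 and 5.30, 5.61 and 6.44 on GSK-J4 1, 2 and 3. The highest values came from 1 array of each group, vehicle 1 and GSK-J4 3, and the groups overlapped over nearly their whole range. The means were 5.70 ± 0.57 and 5.79 ± 0.59 (SD, n = 3 each), a difference of 0.085 with a standard error of 0.40 and a 95% confidence interval from -0.89 to 1.06 (limma adjusted p = 0.894). Probe A_66_P119552 read 5.37, 5.35 and 5.39 on the vehicle arrays and 5.32, 5.39 and 5.71 on the GSK-J4 arrays. Here 5 of the 6 arrays lay close together and only GSK-J4 3 stood higher, again with overlapping groups. This probe differed by 0.10 with a standard error of 0.12 and an interval from -0.19 to 0.39 (limma adjusted p = 0.563). Both differences were above 0 in the table and fell below 0 when arrays were scaled to the 75th percentile (-0.045 and -0.029) or when the trend with GC content was removed (-0.15 and -0.25), so no direction can be given for Oxt. Without vehicle 1 they were 0.40 and 0.10.

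Oxtr, the oxytocin receptor, which couples to Gq, was measured well above background on all arrays by 1 probe (A_55_P2013203, chr6:112423686-112423745). It read 8.21, 8.46 and 8.67 on vehicle 1, 2 and 3 and 8.86, 8.82 and 8.41 on GSK-J4 1, 2 and 3. GSK-J4 1 and 2 were above every vehicle array, while GSK-J4 3 lay among the vehicle arrays. The means of 8.45 ± 0.23 and 8.70 ± 0.25 (SD, n = 3 each) differed by 0.25 with a standard error of 0.17 and an interval from -0.18 to 0.68 (limma adjusted p = 0.338). Over the alternatives the difference ranged from 0.13 without vehicle 1 to 0.39 without GSK-J4 3.

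Avpr1a, the vasopressin receptor of the brain, vessels and liver, was dim, with scanner signals from 22.7 to 64.4, but well above background on all 6 arrays (A_55_P2806793, chr10:121890416-121890475). Its values were 5.45, 5.19 and 5.55 on the vehicle arrays and 5.44, 5.22 and 5.13 on the GSK-J4 arrays. The lowest value belonged to GSK-J4 3 and the highest to vehicle 3, and the groups overlapped. The difference was -0.14 with a standard error of 0.13 and an interval from -0.46 to 0.19 (limma adjusted p = 0.493). Over the alternatives it ranged from -0.27 with scaling to the 75th percentile to -0.039 with normexp background correction, with -0.11 without vehicle 1. Of the other vasopressin receptors, Avpr1b of the pituitary was well above background on 5 of 6 arrays, with table means of 5.84 and 5.71 (limma adjusted p = 0.838). Avpr2 of the kidney passed on GSK-J4 1 only, with a scanner signal of 62.5 there and 3.81 to 11.9 on the other arrays.

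Cd38 makes cyclic ADP-ribose, which releases calcium from internal stores and takes part in oxytocin secretion. Its probe (A_66_P101835, chr5:44302865-44302924) read 8.56, 8.70 and 8.59 on vehicle 1, 2 and 3 and 8.33, 8.87 and 8.81 on GSK-J4 1, 2 and 3. The vehicle arrays lay between the lowest treated array, GSK-J4 1, and the other treated arrays. The means were 8.62 ± 0.077 and 8.67 ± 0.30 (SD, n = 3 each), and the difference of 0.055 had a standard error of 0.16 and an interval from -0.34 to 0.45 (limma adjusted p = 0.827). It changed sign without GSK-J4 2 (-0.044) or GSK-J4 3 (-0.018), was 0.23 without GSK-J4 1 and 0.025 without vehicle 1, so no direction can be given for Cd38.

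**Figure D2:**
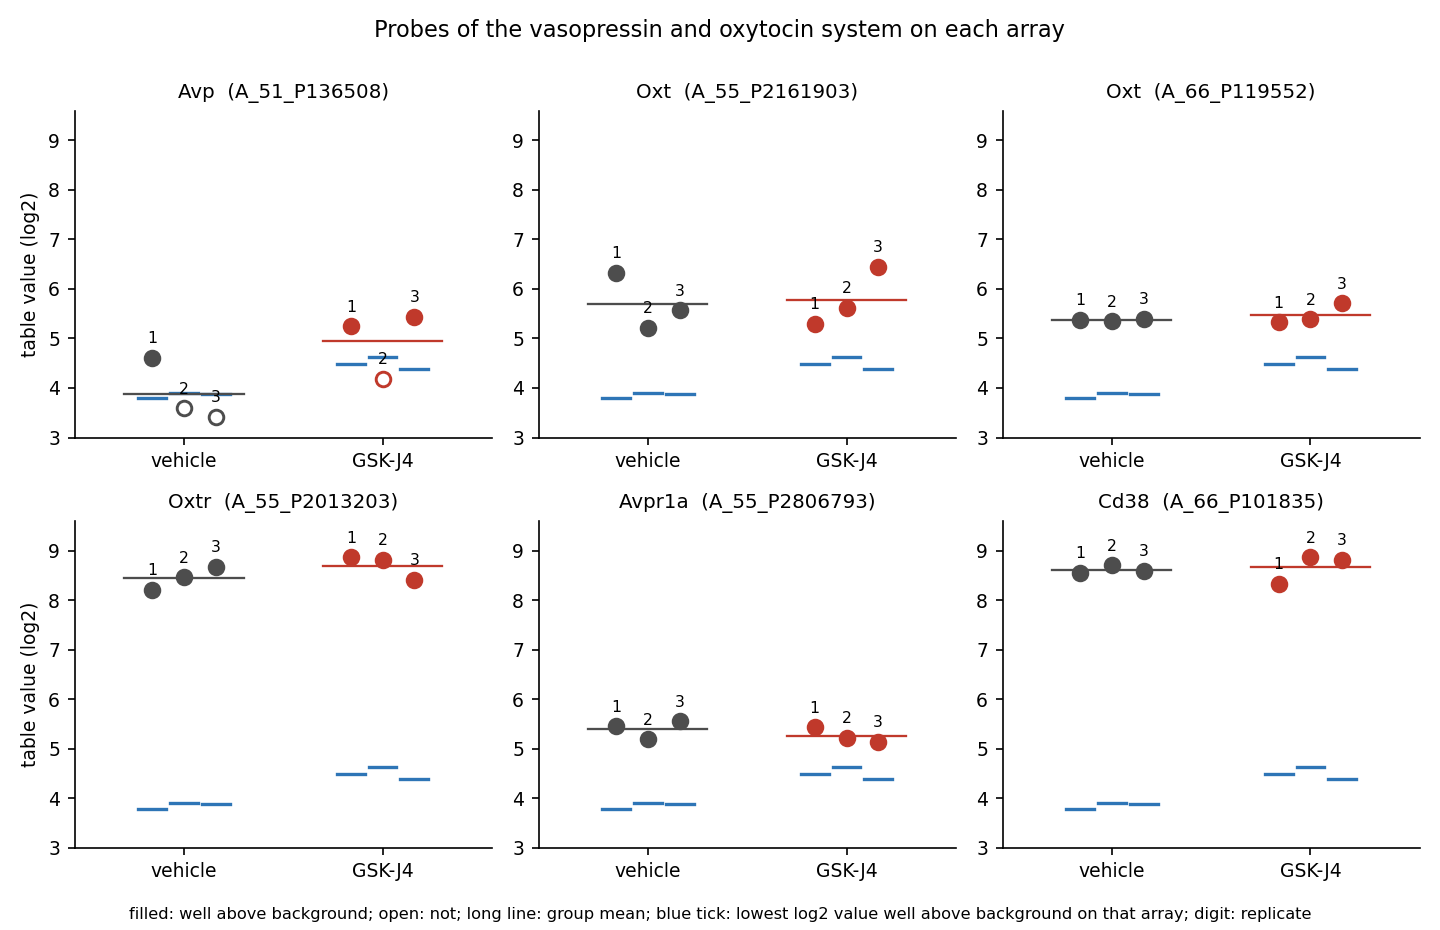
Quantile-normalized log2 table value (y axis) of the 6 probes on each vehicle and GSK-J4 array, with the replicate number at each point, filled where the probe was well above background and open where it was not. Long lines are group means and blue ticks the lowest log2 value well above background on that array. The groups overlap on every probe, and Avp lies at the ticks.

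Taken over the system, 0 of the 5 tested probes passed an adjusted p of 0.05 in the limma fit over all 34444 tested probes, where 5788 passed (16.8%), of which 2889 were higher after GSK-J4 (8.39%) and 2899 lower (8.42%). Without vehicle 1, 2 or 3 the number of all probes that passed was 10, 13 and 5. None of the 5 had an unadjusted limma p under 0.05, against 12577 of all 34444 tested probes. Without GSK-J4 1 it was 1 of the 5 (Cd38), against 10894 of all tested probes. Without GSK-J4 3 it was also 1 (Oxtr), against 12216. The methods' t-test, with or without equal variances, called 0 of the 5 as well. The fold and p thresholds of the methods, 1.5 and 0.05 without adjustment, were applied to the limma p, and 0 of 5 passed, against 4357 of all tested probes (12.6%), 1651 of them higher (4.79%) and 2706 lower (7.86%). With the methods' t-test in place of limma, 0 of 5 and 2938 of all tested probes passed these thresholds without equal variances, and 0 and 3642 with equal variances. The values of the 3 vehicle and the 3 treated arrays did not overlap for 15717 of the tested probes (45.6%) and for 0 of these 5. The exact permutation p of the 6 probes ranged from 0.2 for Avp to 0.9 for Cd38. The median difference was 0.085 over the 5 tested probes, which were measured on all arrays, and 0.047 over all probes so measured. The intervals reach 0.68 for Oxtr and, for Oxt on A_55_P2161903, 1.06.

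**Figure D3:**
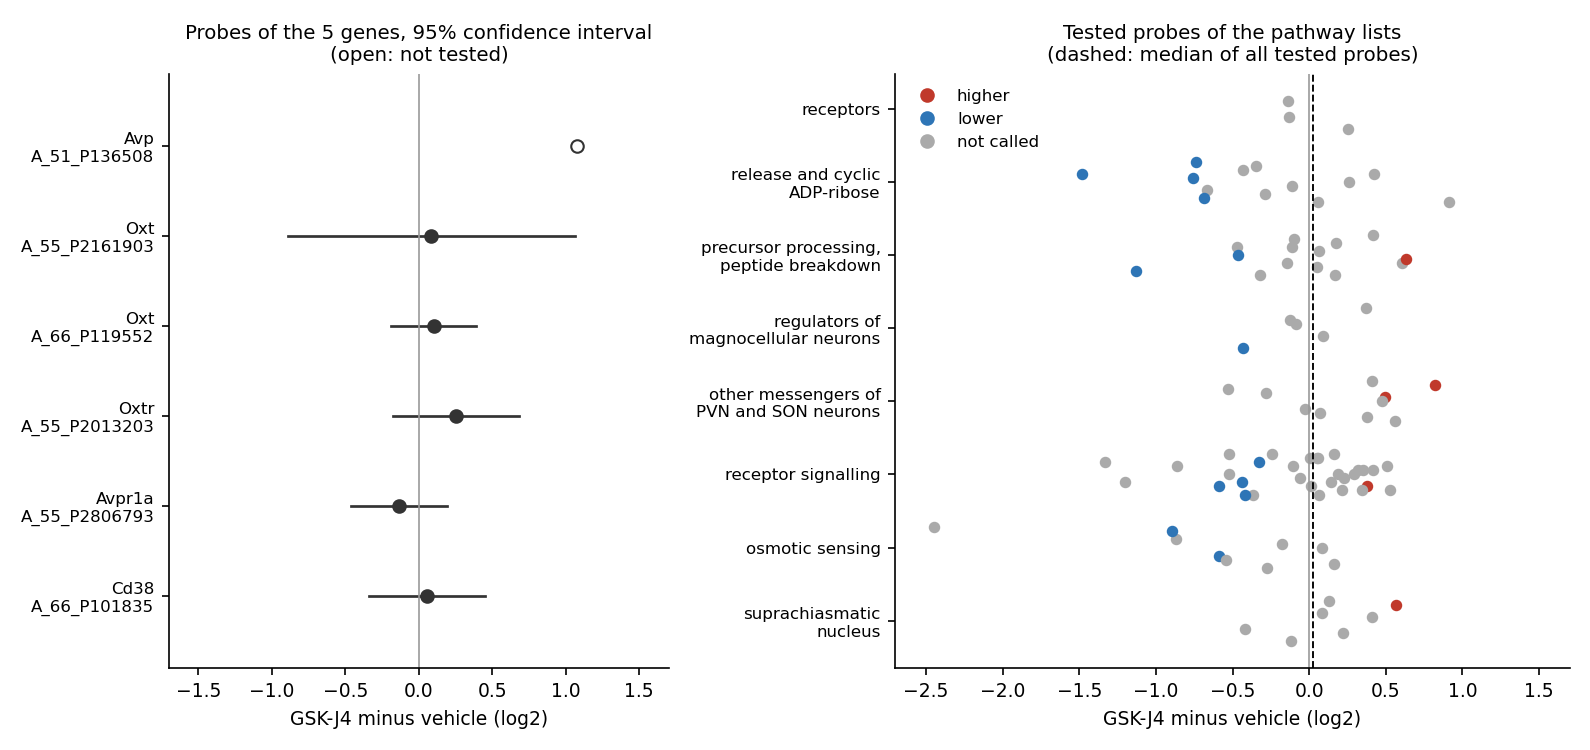
Left, GSK-J4 minus vehicle on the log2 scale for the 6 probes, with the limma 95% confidence interval where tested. Right, the same difference for the 92 tested probes of the 8 pathway lists, red where higher and blue where lower at an adjusted p of 0.05; PVN and SON are the paraventricular and supraoptic nuclei. Every interval of the 5 tested probes includes 0, and 13 list probes were lower and 5 higher.

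The differences followed the base composition of the probes, which bears on both hormone genes. Over all tested probes the median difference was -0.15 for a GC content above 30 and up to 35%, 0.059 above 40 and up to 45%, and 0.38 for the 211 probes above 65%, of which 41.2% were called higher and 0.474% lower. The probes of Avp and of Oxt A_66_P119552 lie in the last range. After the trend with GC content was removed within each array, the Avp difference was 0.67 and the differences of the other 3 genes with 1 probe were 0.31 for Oxtr, -0.074 for Avpr1a and 0.0098 for Cd38. The scanner signals before normalization differed between the groups as well, with 75th percentiles of 803, 916 and 788 on vehicle 1, 2 and 3 and 461, 454 and 407 on GSK-J4 1, 2 and 3.

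Some markers of the tissue check were themselves called. Pomc read 7.79, 8.004 and 8.03 on vehicle 1, 2 and 3 and 8.74, 8.60 and 9.05 on GSK-J4 1, 2 and 3. All treated arrays were higher, by 0.85 (limma adjusted p = 0.022). Ghrh was higher by 0.59 on A_51_P108428 (limma adjusted p = 0.025), a call lost with normexp background correction (0.23), and A_55_P2742073 was not called (0.39, limma adjusted p = 0.155). Of the 9 tested probes of the hypothalamus list 8 had a positive difference. Among them Hcrt (0.81) and Tac2 (0.44) did not pass (limma adjusted p = 0.0587 and 0.0616). Kiss1 (1.02) did not pass either (limma adjusted p = 0.0571). Its probe was well above background on 2 of 3 vehicle arrays. It entered the fit through the GSK-J4 arrays alone, so its difference is not used for the gene. Ghrh, Hcrt and Kiss1 lay near the detection limit. That limit was 3.79 to 3.90 in table values on the vehicle arrays and 4.39 to 4.64 on the GSK-J4 arrays. The part of this shift in their differences was not tested. Hdc differed by -0.51 and was not called (limma adjusted p = 0.197). Both probes of Tnnt1 of the thalamus list were higher, by 0.70 and 0.66 (limma adjusted p = 0.025 and 0.034), whereas the 3 Prkcd probes of that list (-0.41, -0.50 and -0.35) and its 2 Ramp3 probes (0.64 and 0.47) were not called. Neurod6 was lower by -0.47 (limma adjusted p = 0.0335), and Tbr1 was higher by 0.97 on A_55_P2713510 (limma adjusted p = 0.0458) and not called on A_55_P2112584 (-0.063). In the astrocyte list Slc1a3 was lower by -0.76 on 1 of its probes, A_52_P378975 (limma adjusted p = 0.0144), while A_66_P104552 differed by 0.17 and was not called (limma adjusted p = 0.221), and 6 of the 9 tested probes of the list had a positive difference. The microglia list had 0 calls among 5 tested probes, of which 4 had a positive difference. Groups did not overlap for 3 of these 5 and for 45.6% of all tested probes, so this count is no result about microglia. Its summed table values were 6445, 6763 and 5952 on vehicle 1, 2 and 3 and 7840, 8100 and 7760 on GSK-J4 1, 2 and 3. After the GC trend was removed, Neurod6 (-0.31), Tbr1 (0.95, close to its value before) and 1 Tnnt1 probe (0.45) were no longer called. With normexp background correction Tbr1 A_55_P2713510 differed by only 0.39 and was called. Scaling to the 75th percentile ended the call of Neurod6 (-0.30).

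**Figure D4:**
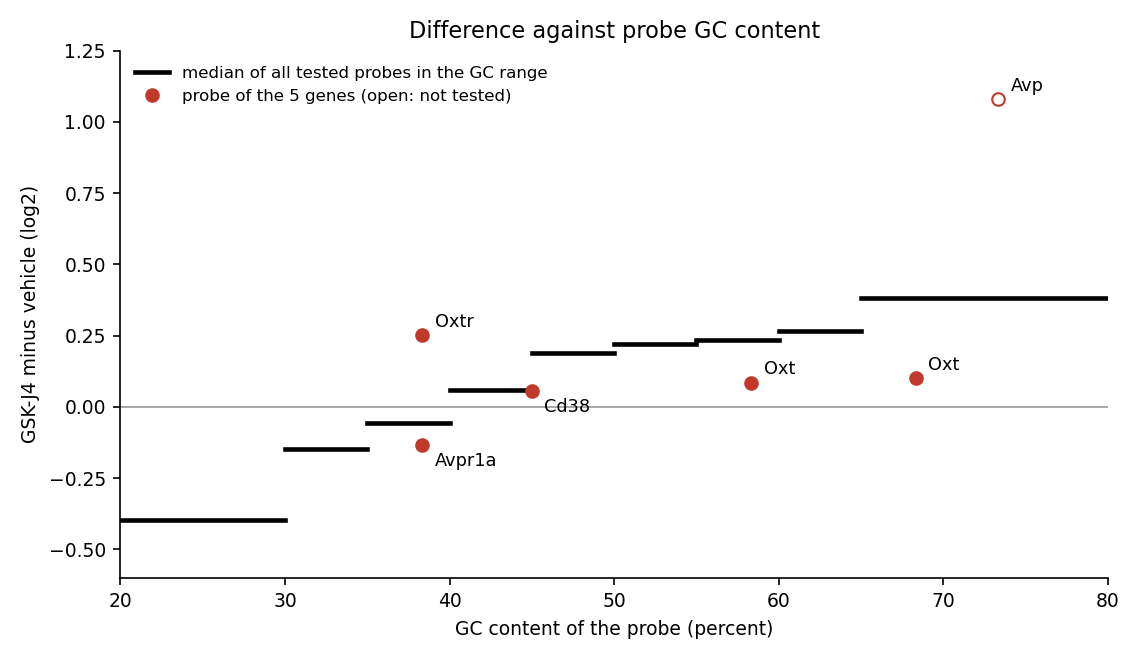
GSK-J4 minus vehicle (log2) against the GC content of the probe. Black lines give the median of all tested probes in each range of GC content (drawn from 20 to 80 percent), and red points the 6 probes of the 5 genes, open for Avp, which was not tested. The median goes from -0.40 in the lowest to 0.38 in the highest range.

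The other genes of the pathway were read from 8 lists, which hold 57 genes with 120 probes, Oxtr, Avpr1a and Cd38 included. Of 92 tested probes 5 in 4 genes were higher after GSK-J4 and 13 in 9 genes lower, against 8.39% and 8.42% of all tested probes, and 1 of the 13, a Ryr3 probe, was well above background on the vehicle arrays only. The 79 probes measured on all arrays had a median difference of 0.052, beside 0.047 for all probes so measured. Every probe called had groups that did not overlap, as did 45.6% of all tested probes. An exact permutation p of 0.1, the smallest possible, follows from that separation. The called probes were picked by their limma p on the same arrays, so neither adds support to the calls. No call on these lists held when 1 vehicle array was left out, and 8 held after the GC trend was removed, while all 18 kept their sign. Arnt2 (-0.40), Arrb1 (0.33), Gna11 (-0.17), Nms (0.41) and Pam (0.59 and -0.39) had no call after that removal. Nos1, Plcb4 and Ryr3 kept 1 probe each, and their lost calls had differences of 0.28 for Nos1, -0.47 for Plcb4 and -0.75 for Ryr3 A_52_P261858. Several lost calls thus kept most of their size. Normexp background correction ended the calls of Arrb1, Trpm2 and Plcb4 A_55_P2025820, and scaling to the 75th percentile those of Arnt2, Gna11, Nms and Nos1 A_55_P2073915.

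In the list of release and cyclic ADP-ribose 4 of 13 tested probes were lower, 1 of them well above background on the vehicle arrays only, and 0 higher. Of all tested probes 8.42% were lower and 8.39% higher. The 10 probes measured on all arrays had a median of -0.32, beside 0.047 for all probes so measured. Ryr3, an intracellular calcium channel of the ryanodine receptor family, fell on the 2 probes measured on all arrays. On probe A_52_P328350 it read 11.60, 11.61 and 11.64 on vehicle 1, 2 and 3 and 10.66, 10.91 and 10.99 on GSK-J4 1, 2 and 3. All treated arrays were below all vehicle arrays, and the difference was -0.76 with a standard error of 0.10 (limma adjusted p = 0.0167). Probe A_52_P261858 differed by -0.74 (limma adjusted p = 0.042). On probe A_51_P519354 Ryr3 was well above background on the 3 vehicle arrays and on no treated array, so only a bound can be given. In the table values it was at least 1.87-fold lower after GSK-J4. For this bound the treated group stands at the higher of its own value and the detection limit on each array. With normexp background correction the log2 difference was -0.43, a smaller change, so the bound holds for the table values only. This probe entered the fit through the vehicle arrays alone, and its call is not used for the gene. Trpm2, a calcium channel opened by ADP-ribose and by warmth, was lower on A_55_P2005730 by -0.69 (limma adjusted p = 0.021), or by -0.20 without a call after normexp background correction. Its other tested probes were not called. They were the brightest, A_52_P676635 (0.26, limma adjusted p = 0.111), A_55_P2718688 (-0.43, limma adjusted p = 0.0708) and A_66_P112412 (0.42, limma adjusted p = 0.148). Ryr1 gave the largest positive difference among the probes of this list measured on all arrays, 0.91 on A_51_P256401, and did not pass (limma adjusted p = 0.0523), while Ryr1 A_52_P391110 differed by -0.29 (limma adjusted p = 0.325). Bst1, the relative of Cd38 that also makes cyclic ADP-ribose, is named because of its values. Its table values were 2.03, 2.40 and 2.46 on vehicle 1, 2 and 3, where no array had it well above background, and 5.35, 5.69 and 4.36 on GSK-J4 1, 2 and 3, where it passed on 2 of 3. It was left out of the fit by the filter, and no fold is given. In the fits without the filter on dim probes and with a laxer detection flag Bst1 was called, from vehicle values that were not well above background.

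Precursor processing and peptide breakdown covers the enzymes that cleave and finish both hormones. Of 14 tested probes 1 was higher and 2 lower, against 8.39% and 8.42% of all tested probes. Pcsk2, the prohormone convertase PC2, read 8.55, 8.49 and 8.49 on vehicle 1, 2 and 3 and 7.28, 7.49 and 7.37 on GSK-J4 1, 2 and 3 with probe A_55_P2718648. The groups were apart by much more than their spread (-1.13, standard error 0.081, limma adjusted p = 0.00919). The second Pcsk2 probe, A_51_P229613, did not show this, with a difference of 0.17 (limma adjusted p = 0.289). Pam, which amidates the C-terminus of both peptides, had probes called in opposite directions, 0.63 on A_55_P2733797 and -0.47 on A_55_P2402781 (limma adjusted p = 0.0397 and 0.0308), so the gene has no single direction here.

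Regulators of the magnocellular neurons were partly missing. Otp and Sim1, transcription factors needed to form these neurons, were well above background on 0 of 6 arrays, with scanner signals of at most 10.1 and 8.10. The other 5 genes were measured on all arrays. Arnt2, the partner of Sim1, fell by 0.43 from values of 10.81, 10.87 and 10.67 on the vehicle arrays to 10.46, 10.24 and 10.34 on the GSK-J4 arrays (limma adjusted p = 0.0363), with no overlap between the groups. Pou3f2, which acts downstream of Sim1, had the largest positive difference of the probes measured on all arrays, 0.37, and was not called (limma adjusted p = 0.129).

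Other messengers of paraventricular and supraoptic neurons had 2 of 10 tested probes higher and 0 lower, against 8.39% and 8.42% of all tested probes. Both were of Nos1, the neuronal nitric oxide synthase. On probe A_55_P2133795 Nos1 read 5.75, 5.71 and 5.73 on vehicle 1, 2 and 3 and 6.76, 6.67 and 6.23 on GSK-J4 1, 2 and 3. The treated arrays were all higher, by 0.82 (standard error 0.15, limma adjusted p = 0.0254), and probe A_55_P2073915 rose by 0.49 (limma adjusted p = 0.0472). Pdyn, the dynorphin precursor that vasopressin neurons also make, had the largest negative difference among the probes of this list measured on all arrays, -0.28, with overlapping groups (limma adjusted p = 0.429). Trh was well above background on 3 of 6 arrays.

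Receptor signalling holds the Gq pathway downstream of Oxtr and Avpr1a. Of 31 tested probes 1 was higher and 4 lower, against 8.39% and 8.42% of all tested probes. The 27 measured on all arrays had a median of 0.065, beside 0.047 for all probes so measured. Itpr1, the inositol trisphosphate receptor, was lower on A_55_P2932328 by -0.59 (limma adjusted p = 0.0353), while A_55_P2745593 (0.35) and A_51_P269663 (-0.24) of the same gene were not called. The G protein subunit Gna11 was lower by -0.33 (limma adjusted p = 0.041). Plcb4, a phospholipase C, was lower on 2 of its 8 tested probes by -0.44 and -0.42 (limma adjusted p = 0.0449 and 0.0473), while another, A_51_P225695, differed by 0.51 and was not called (limma adjusted p = 0.096). Arrb1, an arrestin that uncouples receptors, was higher by 0.38 (limma adjusted p = 0.0496). The largest positive difference was 0.53 on a Plcb2 probe, with overlapping groups (limma adjusted p = 0.139).

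Osmotic sensing, the input that drives vasopressin release, had 2 of 9 tested probes lower, against 8.42% of all tested probes. Both were of Nfat5, a transcription factor that responds to hypertonicity. On A_55_P2719504 Nfat5 read 6.68, 6.57 and 6.55 on vehicle 1, 2 and 3 and 5.66, 5.78 and 5.68 on GSK-J4 1, 2 and 3. The gap of -0.89 was larger than the spread within either group (standard error 0.077, limma adjusted p = 0.012), and A_52_P608444 fell by 0.59 (limma adjusted p = 0.0264). With normexp background correction A_55_P2719504 differed by -0.45 and was called. The other tested Nfat5 probes, A_51_P135309 (-0.27), A_55_P2372248 (-0.18) and A_55_P2719499 (-0.54), were not called. The largest negative difference among probes measured on all arrays was that of the ion cotransporter Slc12a2, -2.45, which rested on GSK-J4 3 alone, where it read 5.16 against 11.66 to 12.31 on the other arrays (limma adjusted p = 0.37). Trpv2 had the largest positive one, 0.16 (limma adjusted p = 0.183), and Trpv1 was well above background on no array.

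The suprachiasmatic list had 1 of 7 tested probes higher and 0 lower, against 8.39% and 8.42% of all tested probes. Nms, neuromedin S, read 4.96, 5.17 and 5.30 on vehicle 1, 2 and 3 and 5.70, 5.83 and 5.60 on GSK-J4 1, 2 and 3. Its treated values were all above the vehicle values (0.57, standard error 0.12, limma adjusted p = 0.0322), close to the detection limit. Before normalization its scanner signals were 43.8, 55.8 and 54.7 on vehicle 1, 2 and 3 and 36.9, 42.0 and 31.3 on GSK-J4 1, 2 and 3. The limit was 3.79 to 3.90 in table values on the vehicle arrays and 4.39 to 4.64 on the GSK-J4 arrays. The part of this shift in the Nms difference was not tested. With normexp background correction Nms differed by 0.29 and was called. Prokr2, the receptor of prokineticin, had the largest negative difference, -0.42 (limma adjusted p = 0.175). Six6 was well above background on no array. The receptor list had no call among 3 tested probes.

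The probes most like Avp over the 6 arrays, among 30962 probes of other genes measured on all arrays, were those of Apobec1 (Pearson r = 0.995), an unnamed intergenic transcript (A_30_P01021392, 0.995), Mtcl1 (0.993), Evc (0.993) and Prima1 (0.990). They share the order of Avp, high on vehicle 1, GSK-J4 1 and GSK-J4 3. After each group's mean was subtracted the most like were Apobec1, Galnt2, Mogs, Adcy7 and Prima1 (0.998 each). For the brightest Oxt probe, A_55_P2161903, the most like were Atp2c1 (0.990), Trip6 (0.987), an unnamed transcript (A_30_P01018083, 0.984), Sox10 (0.981) and another unnamed one (A_30_P01028497, 0.979), all high on vehicle 1 and GSK-J4 3. After the group means were subtracted they were Tep1, Tmem134, Phf10, Rps6 and Flt3l (0.996 to 0.998). With 6 arrays and so many probes, values of this size describe the arrays and no more.

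**Figure D5:**
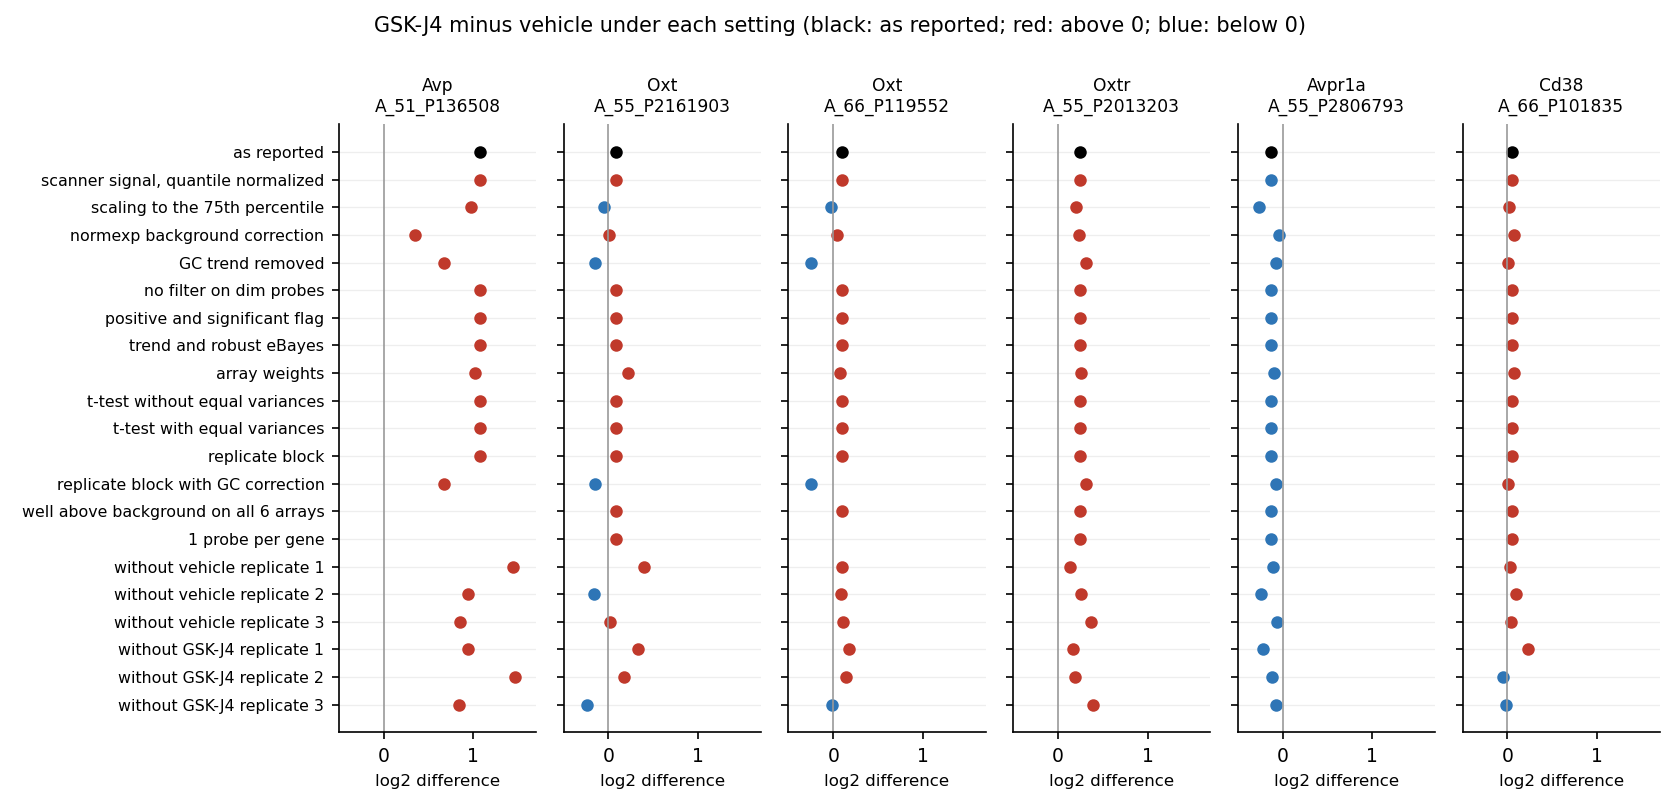
GSK-J4 minus vehicle (log2, x axis) for each of the 6 probes under the setting reported (black) and each alternative in which the probe has a value, red above 0 and blue below 0. Oxtr and Avpr1a keep their sign throughout, whereas both Oxt probes and Cd38 change sign under some settings. Avp stays above 0 as well, but it was not well above background on every array, so its sign gives no direction.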

How the data were processed

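RNA of 6 tissue samples was hybridised to Agilent mouse arrays. The authors read background-corrected intensity and flags of the spots with Feature Extraction, version 10.7.1.1 by the header of the array files. They deposited log2 values, made by quantile normalization with GeneSpring 14.8 according to the methods. Each column has a median of 5.74, the sorted columns differ by at most 0.00424, and the correlation to the scanner values from the same sample is at least 0.999, which settles scale, direction and the absence of centring on genes. All columns were assigned by sample name. Probe positions are those of the deposited files, on mm9.

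These values were fitted with limma 3.58.1 (lmFit and eBayes, two-sided, no covariate) in R 4.3.3 with the data.table package 1.17.8, over 34444 probes that passed the well-above-background flag throughout 1 group or both, with Benjamini-Hochberg adjustment over all of them and a threshold of 0.05. Single values were tested by exact permutation of the arrays. Lists and figures were made with Python 3.11.15 and matplotlib 3.10.9. The fit was tested on simulated data. The named genes are the 5 genes with every probe, list genes with a called probe, the largest rise and fall in each list among probes measured on all 6 arrays, and the 5 probes most like Avp and Oxt. Beyond this rule stand the other vasopressin receptors Avpr1b and Avpr2, and Otp, Sim1, Trh, Trpv1 and Six6 for their detection. Bst1 is named for its values, and genes of the tissue check are named as well. Members and lists were chosen with earlier results of these data known. Alternatives were another normalization, background correction, filter, variance model or test, removal of the GC trend, a replicate block, 1 probe per gene, other thresholds, and leaving out each array. Of the planned marker genes 1 is not reported here.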

Additional observations from a re-analysis of the deposited data

How the results depend on the processing

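None of the 6 probes of Avp, Oxt, Oxtr, Avpr1a and Cd38 was called under any of the alternatives run. The limma adjusted p of Avp was 0.23 without the filter on dim probes and 0.174 with the laxer flag, the only settings that tested it. The Avp difference of 1.08 became 0.35 after normexp background correction, and its range when 1 array was left out was 0.84 to 1.46. Differences that changed sign were those of Oxt A_55_P2161903 (-0.045 with scaling to the 75th percentile, -0.15 with the GC trend removed, with or without the replicate block, and a range of -0.24 to 0.40 when 1 array was left out), of Oxt A_66_P119552 (-0.029, -0.25 and -0.25, and -0.016 to 0.18) and of Cd38 (-0.044 to 0.23 when 1 array was left out), and the cause was not tested. All probes called, 5788 of 34444, came to 3566 with the GC trend removed, 3765 without the filter, 93 and 3315 with the methods' t-test without and with equal variances, 3711 with 1 probe per gene, which tests 22117 probes, 2979 with a fold of at least 1.5 beside the adjusted p, and 5 to 4166 when 1 array was left out, and rose to 8682 with scaling to the 75th percentile (5032 higher, 3650 lower), 6770 with trend and robust eBayes and 6653 with array weights. Without vehicle 1, 2 or 3 they were 10, 13 and 5, and without GSK-J4 1 they were 2402. Probes of the pathway lists called, 18 with 5 higher and 13 lower, came to 8 with the GC trend removed (1 higher, 7 lower), 9 without the filter, 10 with the laxer flag, 1 and 6 with the methods' t-test without and with equal variances, 7 with 1 probe per gene, 10 with the added fold, and 0 to 13 when 1 array was left out, with 0 without any 1 vehicle array, 8 without GSK-J4 1 and 9 without GSK-J4 3, and rose to 21 with scaling to the 75th percentile or array weights and 20 with normexp. With the replicate number as a block limma called 0 probes, with or without GC correction, and 0 of the pathway lists, while 11069 and 9555 probes had an unadjusted p under 0.05. Samples share only that number, since the deviations of vehicle and GSK-J4 arrays 1, 2 and 3 from their group means correlated across probes at 0.0072, 0.028 and 0.084, and not every array correlated best with its own number. Signal over background limits Avp most, at 0.722 to 2.06 times the detection limit, followed by Avpr1a and Oxt.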
